A study of Mus musculus with 117 samples.

Results

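The regions described here are the autosomal stretches of the mouse genome where hepatocyte chromatin was assigned to state 5, 7 or 11 in several inbred strains at once. They were chosen on the segmentations themselves: a 200-bp bin was kept when at least 4 of the 9 strains carried state 5, 7 or 11 there, in any mix, and adjacent bins were merged. This gave 2801 regions of 9795 bins (1959 kb), which is 0.0795% of the 12313718 autosomal bins. A region or bin is called led by the state that most strain-bins (1 bin in 1 strain) carried among the 3. By that count 703 regions were led by state 5, 525 by state 7 and 1507 by state 11, and 66 were tied.

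The study profiled hepatocytes, the metabolic cells of the liver, in female mice 12 weeks of age from 9 inbred strains, with no treatment named. The classical laboratory strains are C57BL/6J, DBA/2J, A/J, 129S1/SvImJ, NZO/HlLtJ and NOD/ShiLtJ, and the wild-derived ones are WSB/EiJ, CAST/EiJ and PWK/PhJ. Chromatin immunoprecipitation sequencing of H3K4me1, H3K4me3, H3K27ac and H3K27me3 in 3 mice per strain and mark, with 1 input per strain, makes 13 samples per strain and 117 in all. Each strain has 1 segmentation into 14 numbered states, so a strain gives 1 value, errors are SDs over strains, the spread between mice is not seen and the depth is unknown.

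Among these marks, H3K4me3 is known from active promoters, H3K4me1 from enhancers, H3K27ac from active promoters and enhancers, and H3K27me3 from genes silenced by the Polycomb complexes. Promoters that carry both an activating mark and H3K27me3 are called bivalent and are best known from developmental regulators in stem cells. Imprinted genes, which are expressed from 1 parental chromosome, and the inactive X chromosome of female cells can also show active and silent marks together in bulk data. In a bulk sample 2 marks in the same cell and 2 marks in different cells or on different alleles cannot be told apart. Which marks make up a state is not given in the sources used here, so state numbers serve only as names.

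The cell type label was checked at the starts of marker genes. Within 1 kb of the starts of 6 hepatocyte marker genes, 97.3% ± 2.55 of bins were in states 1, 2 or 3 (SD, n = 9) and none was in a rare state in any strain. Of the starts of 3 Kupffer and leukocyte markers, 83.0% ± 9.84 of bins were in states 13 or 14 and 0.327% ± 0.980 in a rare state. Endothelial markers (2 starts) had 20.2% ± 19.2 of bins in a rare state, ranging from 0% to 45.5% between strains. They had 31.3% ± 28.0 in states 13 or 14 and 16.7% ± 22.5 in states 1, 2 or 3, the latter up to 63.6% in 1 strain. The stellate and bile duct markers (2 starts) had 13.1% ± 13.1 in a rare state, ranging from 0% to 31.8%, and 1.01% ± 3.03 in states 1, 2 or 3. More of their bins were in states 10 or 12, with 43.4% ± 9.12, and in states 13 or 14, with 38.9% ± 10.4.

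Promoters of 6 of the longest regions are printed because they show how differently composed the sequences under these states are. Each line holds 250 bases before to 50 bases after a RefSeq start of the gene (GRCm38.p6). It reads 5′ to 3′ on the gene's strand, with CpG dinucleotides in capitals. The Zeb2 start used lies inside the annotated gene (chr2:44983512-45117442). The first 3 lie under regions led by state 5: Hlx (chr1:184732444-184732743, minus strand), Zeb2 (chr2:45110228-45110527, minus strand) and Cyp3a41b (chr5:145584681-145584980, minus strand). Exoc3l2 (chr7:19463037-19463336, plus strand) lies under a region led by state 7. Flt4 (chr11:49609429-49609728, plus strand) and Plxnc1 (chr10:94944796-94945095, minus strand) are at regions led by state 11.
Hlx: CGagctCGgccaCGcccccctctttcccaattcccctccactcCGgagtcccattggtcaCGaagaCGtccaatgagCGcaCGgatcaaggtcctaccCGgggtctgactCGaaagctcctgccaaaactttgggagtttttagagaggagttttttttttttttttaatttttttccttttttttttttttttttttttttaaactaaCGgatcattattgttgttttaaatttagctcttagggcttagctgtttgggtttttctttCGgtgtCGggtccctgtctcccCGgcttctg
Zeb2: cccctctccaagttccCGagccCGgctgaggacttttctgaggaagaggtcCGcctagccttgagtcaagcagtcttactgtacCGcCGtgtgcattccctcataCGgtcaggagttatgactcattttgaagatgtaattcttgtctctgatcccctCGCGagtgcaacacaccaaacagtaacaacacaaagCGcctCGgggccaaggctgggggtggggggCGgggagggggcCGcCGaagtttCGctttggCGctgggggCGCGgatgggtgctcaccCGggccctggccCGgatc
Cyp3a41b: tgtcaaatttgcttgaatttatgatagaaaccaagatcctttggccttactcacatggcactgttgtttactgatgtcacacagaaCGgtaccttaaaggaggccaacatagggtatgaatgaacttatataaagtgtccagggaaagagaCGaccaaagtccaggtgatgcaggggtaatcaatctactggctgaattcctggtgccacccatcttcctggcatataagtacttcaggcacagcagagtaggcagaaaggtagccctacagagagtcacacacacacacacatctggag
Exoc3l2: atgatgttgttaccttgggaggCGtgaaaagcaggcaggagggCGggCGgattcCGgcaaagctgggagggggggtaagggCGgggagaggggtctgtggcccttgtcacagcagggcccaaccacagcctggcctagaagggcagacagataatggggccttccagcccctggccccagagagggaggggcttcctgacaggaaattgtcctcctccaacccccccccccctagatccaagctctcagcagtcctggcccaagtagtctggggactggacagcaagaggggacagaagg
Flt4: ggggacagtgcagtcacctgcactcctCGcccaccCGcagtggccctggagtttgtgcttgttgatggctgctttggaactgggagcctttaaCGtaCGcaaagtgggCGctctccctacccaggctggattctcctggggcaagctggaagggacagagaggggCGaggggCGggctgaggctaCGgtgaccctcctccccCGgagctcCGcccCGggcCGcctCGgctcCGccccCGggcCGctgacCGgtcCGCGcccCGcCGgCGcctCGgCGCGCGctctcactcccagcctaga
Plxnc1: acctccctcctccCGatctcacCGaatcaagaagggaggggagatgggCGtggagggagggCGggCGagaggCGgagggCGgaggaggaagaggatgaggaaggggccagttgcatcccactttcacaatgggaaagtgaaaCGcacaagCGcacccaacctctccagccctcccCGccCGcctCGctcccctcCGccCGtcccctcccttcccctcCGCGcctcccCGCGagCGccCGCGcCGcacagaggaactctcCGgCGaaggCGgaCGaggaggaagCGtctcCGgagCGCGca

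The 6 promoters run from almost CpG-free to CpG-dense. Cyp3a41b, a cytochrome P450 gene with female-biased liver expression, has 2 CpG in 300 bases and Exoc3l2 has 5. Hlx, a homeobox regulator of liver and gut development, has 14, and Zeb2, a zinc-finger repressor, has 19. Flt4, the receptor of the lymphatic growth factor VEGF-C, has 26, and Plxnc1, a semaphorin receptor, has 30. The promoter of Erg, at another region led by state 11, is not printed and has 4. Like that of Zeb2, its start lies inside the annotated gene (chr16:95359169-95586600). The CpG density of these windows thus did not sort by leading state. The regions cover the Hlx, Zeb2, Cyp3a41b and Exoc3l2 windows whole, whereas the Flt4 region begins at chr11:49609601 and the Plxnc1 region ends at chr10:94945000, inside the printed windows.

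Over all promoters touched by a member bin, CpG content was above that of the promoter table. The median was 20 CpG for 208 promoters led by state 5, 23 for 89 led by state 7 and 23 for 147 led by state 11, against 14 over all 20085 promoters of the table. The median GC content was 64.3%, 69.0% and 64.7% in the same order, against 57%. The sequence TATAAA (either strand) was present in 7.69%, 2.25% and 6.12%, against 12.7% of all. CCAAT was present in 26.0%, 11.2% and 27.9%, against 38.1%, and GGGCGG in 66.8%, 70.8% and 70.1%, against 47.0% (both strands searched; matches of different motifs can overlap and were counted separately). These counts describe the windows and were not tested, since promoters are not replicates.

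Because the rule fixed that each bin recurs, its recurrence is a description. Of the 52073 autosomal bins that carried a rare state in at least 1 strain, 18.8% were members. Just outside the rule, 4614 bins carried one in 3 strains (1102 led by state 5, 1296 by state 7 and 2143 by state 11). Just inside it, 3200 carried one in 4 strains (713, 835 and 1463), and 565 carried one in all 9 (256, 97 and 202). Regions were short: the median was 600 bp for those led by state 5 or 7 and 400 bp for state 11, and 29.1% were single bins. In 367 regions (13.1%) every strain had at least 1 rare bin, 125 of them led by state 5, 38 by state 7 and 200 by state 11.

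Most bins kept to 1 of the 3 states across strains. 1 state alone was seen in 6762 bins (69.0%), 2 in 2391 (24.4%) and all 3 in 642 (6.55%). Counted over whole regions, which pool bins, 345 of 2801 held strain-bins of all 3. Of pairs seen at the same bin, 5 with 11 occurred in 1553 bins, 5 with 7 in 1445 and 7 with 11 in 1319.

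Strains took part unequally. 129S1/SvImJ carried a rare state in 75.8% of member bins, NZO/HlLtJ in 74.4%, C57BL/6J in 73.5%, DBA/2J in 63.5% and WSB/EiJ in 58.6%. NOD/ShiLtJ had 56.8%, CAST/EiJ 56.0%, A/J 50.4% and PWK/PhJ 49.0%. The low shares had 2 different settings. A/J had the fewest rare bins on the autosomes, 8365, and 59.0% of these were members, the highest such share. PWK/PhJ had 13965, near the top of the range that ends at 14869 in C57BL/6J, and 34.3% of them were members, the lowest share. Pairs of strains shared between 28.9% (A/J and PWK/PhJ) and 62.0% (129S1/SvImJ and NZO/HlLtJ) of the member bins that either carried. Where both carried a rare state it was the same one in 73.3% to 91.2% of bins.

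To measure recurrence in strains that did not choose the bins, the rule was repeated 9 times with 1 strain set aside. A strain left out carried a rare state in 55.9% ± 10.4 of the bins that at least 4 of the other 8 chose (SD, n = 9), from 42.7% in PWK/PhJ to 69.9% in 129S1/SvImJ. Over all autosomal bins the same strains had 0.104% ± 0.0178. The difference was 55.8 ± 10.4 percentage points and every strain was positive (two-sided exact permutation test that flips the sign of each strain's difference, p = 0.0039, the smallest this test can give with 9 strains). The strains are related to unequal degrees, which the test does not model.

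The state number recurred along with the position. Where the other strains led with state 5, a left-out strain with a rare state had state 5 in 85.6% ± 7.04 of bins, against 6.27% ± 5.72 where they led with 7 or 11. For state 7 the values were 84.9% ± 7.31 and 4.83% ± 2.65, and for state 11 they were 91.1% ± 8.23 and 7.09% ± 3.82. All 3 differences held in 9 of 9 strains (exact sign-flip permutation tests, Benjamini-Hochberg adjusted p = 0.0039 each).

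Recurrence differed between the states in 1 of 3 pairs. It was 60.2% ± 12.2 for bins led by state 5, 51.2% ± 13.6 for state 7 and 55.9% ± 10.3 for state 11. State 5 exceeded state 7 by 8.98 ± 6.14 percentage points in 9 of 9 strains (exact permutation test, adjusted p = 0.012). The difference of 4.31 ± 11.2 between states 5 and 11 ran from -7.72 to 21.7 and was positive in 5 of 9 strains (exact permutation test, adjusted p = 0.29). States 7 and 11 differed by -4.67 ± 8.61 (exact permutation test, adjusted p = 0.23), but without C57BL/6J the difference was -6.75 with adjusted p = 0.047 by the same test, and counting a neighbouring bin as a hit it was -9.89 with adjusted p = 0.018.

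**Figure D1:**
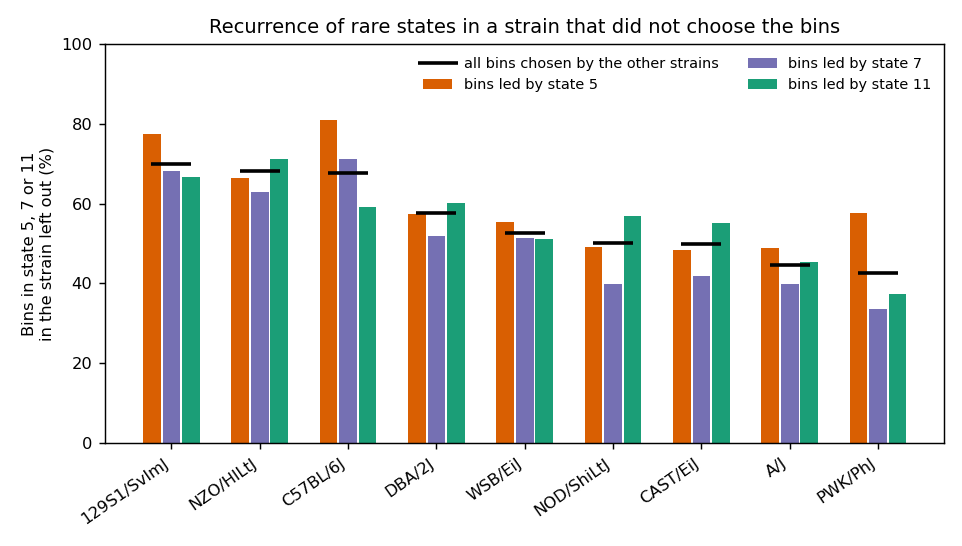
Bars give, for each strain on the x axis, the percentage (y axis) of bins chosen by at least 4 of the other 8 strains that were in state 5, 7 or 11 in that strain, by leading state, and black marks give all such bins together. The marks run from 69.9% in 129S1/SvImJ to 42.7% in PWK/PhJ, and the bar of state 5 is above that of state 7 in every strain.

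Longer regions recurred more often. In regions of at least 3 bins the left-out strain carried a rare state in 58.9% ± 11.1 of bins, against 41.8% ± 8.01 in regions of 1 bin, a difference of 17.1 ± 3.90 percentage points in 9 of 9 strains (exact sign-flip permutation test, p = 0.0039). No difference was resolved by position: bins within 1 kb of a protein-coding gene start had 56.9% ± 10.8 and bins over 5 kb from any gene 58.8% ± 11.4, with the difference of -1.87 ± 6.71 running from -13.1 to 8.04 (exact permutation test, p = 0.41). Its sign was not stable: it was 1.21 with at least 3 other strains and 3.23 when a neighbouring bin counted, and neither passed the threshold.

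The 8 longest gene regions of each state show what such recurrence looks like at single genes. The longest was at Hlx (chr1:184729601-184736200, 33 bins, led by state 5), where it spans the start of the gene (chr1:184727143-184732493). All 33 bins were rare in 129S1/SvImJ, DBA/2J and PWK/PhJ, 32 in NZO/HlLtJ, 31 in C57BL/6J, 15 in CAST/EiJ, 12 in A/J and in WSB/EiJ, and 9 in NOD/ShiLtJ. The strains thus fell into a group with nearly the whole stretch and a group with less, with no strain between 15 and 31 bins. In the 5 strains of the first group 8 to 10 bins were in state 7, while the most frequent state was 12 in CAST/EiJ and WSB/EiJ and 10 in A/J and NOD/ShiLtJ.

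Zeb2 (chr2:45106601-45113000, 32 bins) was similar in length, and its lowest strain was again NOD/ShiLtJ. Rare bins numbered 32 in 129S1/SvImJ, C57BL/6J and PWK/PhJ, 30 in DBA/2J and NZO/HlLtJ, 25 in CAST/EiJ and WSB/EiJ, 19 in A/J and 13 in NOD/ShiLtJ. Every strain had state 5 there, from 7 bins in NOD/ShiLtJ to 29 in PWK/PhJ, and 8 of 9 also had state 11, PWK/PhJ being the exception. Of the other regions led by state 5, those at Sema6d (an axon guidance ligand), Chst15 (a chondroitin sulfotransferase), Ptprm (a receptor tyrosine phosphatase), Elk3 (an ETS factor) and Dusp8 (a MAP kinase phosphatase) were 15 to 16 bins long and had a rare state in every strain, in 3 to 16 bins.

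At Cyp3a41b (chr5:145582001-145585800, 19 bins, over the gene start) strains ranged from every bin to none. State 5 covered 19 bins in 129S1/SvImJ and DBA/2J, 18 in C57BL/6J, 9 in A/J, 6 in NZO/HlLtJ and 2 in PWK/PhJ. NOD/ShiLtJ had 13 bins of state 11 and none of state 5. CAST/EiJ and WSB/EiJ had no rare bin and were mostly in state 1, with 12 and 11 bins, as was PWK/PhJ with 11. The promoters of Cyp3a41b and its copy Cyp3a41a are identical at 292 of 300 positions (97.3%), so reads of the 2 genes may not be separable and which copy carries a state is uncertain.

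Several of the long regions led by state 7 lay inside a gene, whereas those at Itga9, Exoc3l2 and C1qtnf1 began outside it. At Itga9, an integrin subunit, the region (chr9:118606601-118613000, 32 bins) begins 108 bp before the annotated gene (chr9:118606709-118901003). It was rare in all 32 bins of 129S1/SvImJ, A/J, C57BL/6J and NZO/HlLtJ, 31 of DBA/2J, 28 of NOD/ShiLtJ, 23 of WSB/EiJ, 20 of CAST/EiJ and 18 of PWK/PhJ. State 7 was the most frequent state in every strain, with 12 bins in PWK/PhJ at the low end and 32 in A/J at the high end.

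Cyp2e1 encodes the ethanol-metabolising cytochrome P450 of hepatocytes around the central vein. Its region (chr7:140768601-140774800, 31 bins) lies within the gene (chr7:140763819-140774990), from 4782 bp after the gene's first base to 190 bp before its last. Rare bins numbered 31 in C57BL/6J, CAST/EiJ, NZO/HlLtJ and WSB/EiJ, 18 in 129S1/SvImJ, 16 in A/J, 13 in DBA/2J and 0 in NOD/ShiLtJ and PWK/PhJ. In the strains without a rare bin the most frequent state was 4, with 14 bins in NOD/ShiLtJ and 28 in PWK/PhJ.

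Sdc3, a syndecan, repeated this split between states 7 and 4 (chr4:130795401-130800800, 27 bins, none in state 5 or 11 in any strain). State 7 covered 27 bins in C57BL/6J and NZO/HlLtJ, 26 in WSB/EiJ, 20 in 129S1/SvImJ and 10 in CAST/EiJ, DBA/2J and NOD/ShiLtJ. A/J and PWK/PhJ had none, A/J with 18 bins in state 14 and PWK/PhJ with 27 in state 4. Cyp3a16 (chr5:145456601-145460800, 21 bins), a neighbour of Cyp3a41b, was rare in 21 bins of C57BL/6J, DBA/2J and NZO/HlLtJ, 16 of 129S1/SvImJ and 10 of A/J, and in none of CAST/EiJ, NOD/ShiLtJ, PWK/PhJ or WSB/EiJ. The remaining regions of state 7 were at Exoc3l2 (20 bins, 7 strains), at C1qtnf1, a secreted C1q-like protein (20 bins, 9 strains), and at 2 places of Sfi1, a spindle gene with many near-identical copies, so that its placement is uncertain.

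Each of the 8 longest regions led by state 11 held all 3 states, although over all bins led by state 11 a left-out strain with a rare state had state 11 in 91.1% ± 8.23. Holding all 3 was not particular to state 11. It was also seen at some long regions led by state 5, such as Hlx and Zeb2, and by state 7, such as Itga9 and Exoc3l2. At Lfng, a glycosyltransferase that modifies Notch (chr5:140606401-140611400, 25 bins), rare bins numbered 25 in DBA/2J and NZO/HlLtJ, 22 in CAST/EiJ, 21 in C57BL/6J, 19 in PWK/PhJ, 16 in 129S1/SvImJ and WSB/EiJ, 7 in NOD/ShiLtJ and 1 in A/J. State 11 covered 15 bins in WSB/EiJ and 14 in CAST/EiJ and PWK/PhJ, while DBA/2J and NZO/HlLtJ had more of state 7, with 14 and 16 bins. At Ptprb, the vascular endothelial tyrosine phosphatase (chr10:116301401-116305600, 21 bins), the leading state itself changed with the strain. State 11 covered 20 bins in WSB/EiJ, 18 in DBA/2J and 12 in 129S1/SvImJ, state 7 covered 16 in NZO/HlLtJ and 11 in CAST/EiJ, and state 5 covered 17 in PWK/PhJ.

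A/J had few rare bins at most of the 8. The other 6 were at Bmp2 (a growth factor), Clec14a, Flt4 and Erg (which are known from endothelial cells), Plxnc1, and Abi3 with Gngt2. A/J had 0 of 20 rare bins at Clec14a, 1 of 18 at Flt4, 1 of 18 at Plxnc1 and 2 of 18 at Abi3 and Gngt2, but 13 of 20 at Bmp2 and 10 of 17 at Erg. 129S1/SvImJ had 20 of 20, 17 of 18, 17 of 18 and 18 of 18 at the first 4 of these, and NOD/ShiLtJ had 4, 10, 6 and 1.

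**Figure D2:**
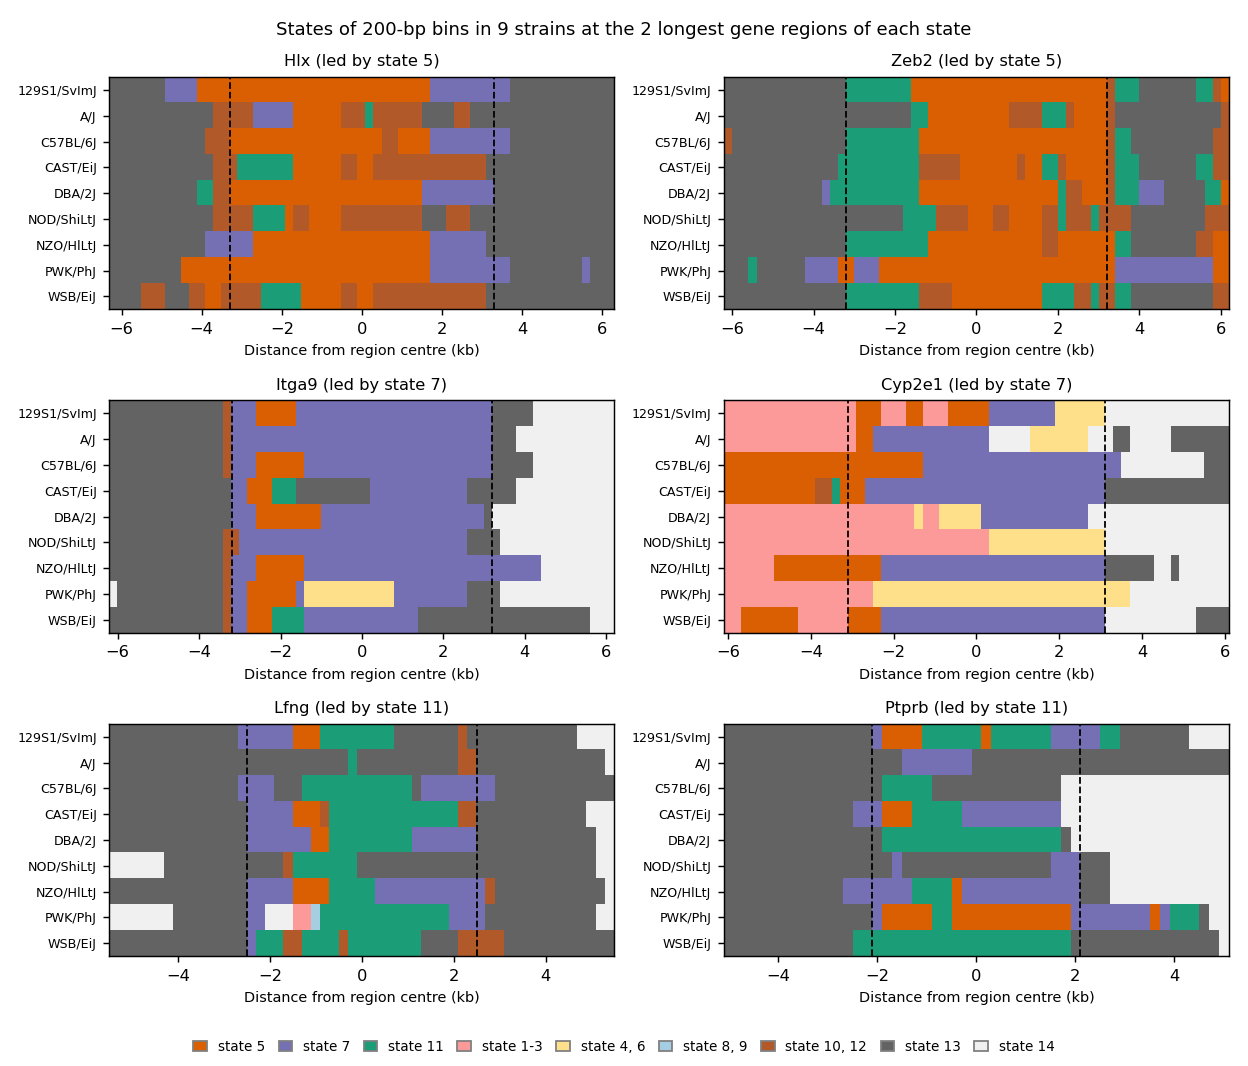
State of each 200-bp bin (colour) in the 9 strains (rows) against distance from the centre of the region in kb, for the 2 longest gene regions led by each state, with dashed lines at the region's ends. At Hlx 5 strains have at least 31 of 33 bins in states 5 and 7, at Cyp2e1 NOD/ShiLtJ and PWK/PhJ have no rare bin, and at Ptprb the rare state differs between strains.

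Strains that lacked a rare state at a member bin tell what else the position can be. These strain-bins were chosen by the other strains alone. Over all members, 34.5% ± 11.3 were in state 13, 17.4% ± 6.48 in state 12, 10.5% ± 5.84 in state 9 and 9.67% ± 3.90 in state 14, whereas the 11 other states share all autosomal bins as 11.1% for state 13, 0.0754% for state 12, 0.815% for state 9 and 76.7% for state 14. Of the 11 states 10 differed from the autosomal share (exact sign-flip permutation tests over 9 strains, Benjamini-Hochberg over 11 states), and state 2 did not pass (adjusted p = 0.059, exact test). For states 9, 12, 13 and 14 the adjusted p was 0.0054 in the same exact test, with the same direction in 9 of 9 strains.

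The alternatives were different for each rare state. In bins of regions led by state 5, strains without a rare state were in state 12 at 28.8% ± 9.27 and state 1 at 24.6% ± 10.2. State 10 followed at 11.2% ± 7.25 and state 13 at 10.4% ± 5.08. In regions led by state 7, they were in state 13 at 37.9% ± 13.9, state 14 at 24.1% ± 6.21 and state 4 at 18.9% ± 10.2. In regions led by state 11, they were in state 13 at 45.7% ± 15.2, state 9 at 18.7% ± 12.2 and state 12 at 17.8% ± 8.11. State 4, the alternative seen at Cyp2e1 and Sdc3, reached 1.72% ± 1.12 for state 5 and 0.149% ± 0.123 for state 11.

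Tests of these contrasts passed the threshold in 25 of 33 comparisons of pairs and states. The leading state of a region was counted over all 9 strains. A strain's own rare bins elsewhere in a region thus helped to set the group its other bins fell in. State 1 was 23.1 ± 9.73 percentage points higher for state 5 than for state 7, and 23.4 ± 9.53 higher than for state 11. State 4 was 18.8 ± 10.3 higher for state 7 than for state 11, and state 9 was 15.4 ± 11 higher for state 11 than for state 5. Each of these held in 9 of 9 strains (exact sign-flip permutation tests, adjusted p = 0.0056). State 13 did not differ between 7 and 11 beyond the spread of strains, with -7.84 ± 15.5 and a range from -39.2 to 17.4 (exact permutation test, adjusted p = 0.21).

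**Figure D3:**
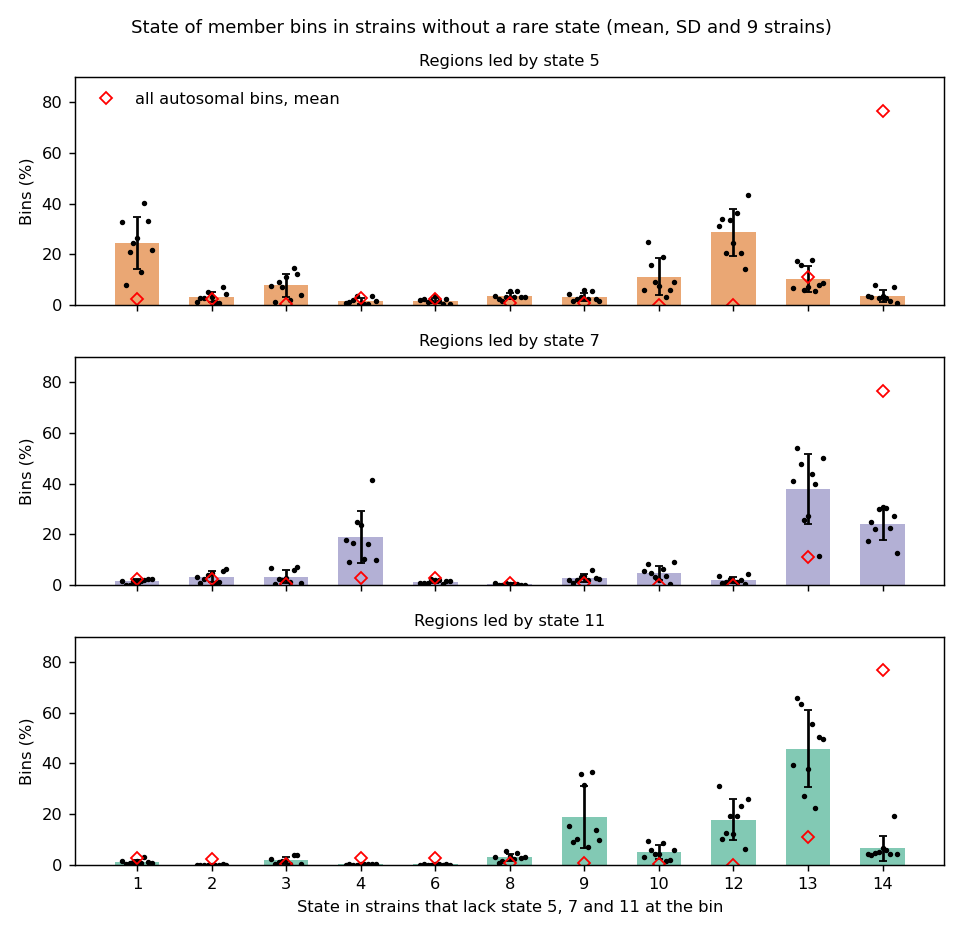
Bars and error bars give the mean and SD over 9 strains (dots) of the percentage of member bins (y axis) in each of the 11 other states (x axis). Bins are counted only in strains without state 5, 7 or 11 there, by the leading state of the region. Red diamonds give all autosomal bins. States 12 and 1 stand out at state 5 (28.8% and 24.6%), states 13, 14 and 4 at state 7, and states 13, 9 and 12 at state 11.

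The surroundings repeated part of this. In the 1 kb on both sides of the regions, 41.1% ± 4.82 of bins outside the rare states were in state 13, 20.8% ± 4.25 in state 14 and 14% ± 2.03 in state 12. States 8, 9 and 10 each held between 4.65% and 4.77%. Relative to all autosomal bins state 14 was lower by 55.9 ± 3.90 percentage points, and state 13 was higher by 30.1 ± 4.79 and state 12 by 13.9 ± 2.02, each in 9 of 9 strains (exact sign-flip permutation tests, adjusted p = 0.0043). The excess of state 12 depended on the distance, with 26.5 in flanks of 200 bp and 3.56 in flanks of 5 kb. In flanks of 5 kb the difference in state 14 was -33.5, and states 9 and 10 were higher by 2.08 and 1.99, against 3.85 and 4.62 in 1 kb. Of the 11 states 10 passed, state 4 being the exception (adjusted p = 0.07, exact test). Unlike the held-out bins, these regions were chosen with the measured strain included, and flanks adjoin them in the same segmentation. The tests therefore cannot separate the surroundings from the choice of the regions.

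Flanks also separated the 3 states, in 31 of 33 comparisons, with the leading state again counted over all 9 strains. State 12 held 15.8% ± 2.36 of the flanks at state 5 and 20.2% ± 2.90 at state 11 but 2.10% ± 0.607 at state 7. State 13 held 28.3% ± 3.23, 42.0% ± 4.69 and 50.8% ± 8.72 at states 5, 11 and 7. The difference in state 12 between 7 and 11 was -18.1 ± 2.66 percentage points, in 9 of 9 strains (exact permutation test, adjusted p = 0.0044).

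The rare regions lay near genes, in places that differed by state. Within 1 kb of a protein-coding gene start were 39.0% of the bins led by state 5, 20.3% of those led by state 7 and 29.9% of those led by state 11, against 1.56% of all autosomal bins. Farther than 5 kb from any gene were 13.8%, 19% and 2.59%, against 41.7%. The median distance of a bin to the nearest start was 3567 bp for state 5, 18227.5 bp for state 7 and 1658.5 bp for state 11. Starts were known for 16457 of 20665 autosomal protein-coding genes, and none on chromosome 18 was in the table.

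State 5 centred on the start and state 11 on its shoulders. Of bins led by state 5, 17.0% lay in the first 500 bp downstream of the nearest start and 8.69% in the 500 bp before it. State 7 had the same peak at about that place with 8.67%. State 11 had 5.36% there and 13.3% in the interval from 1000 to 1500 bp downstream, with another maximum of 7.12% from 1000 to 500 bp upstream. The state 11 regions at Flt4 and Plxnc1, whose edges fall inside the promoters printed above, are examples of a region that starts at the gene and runs into it.

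**Figure D4:**
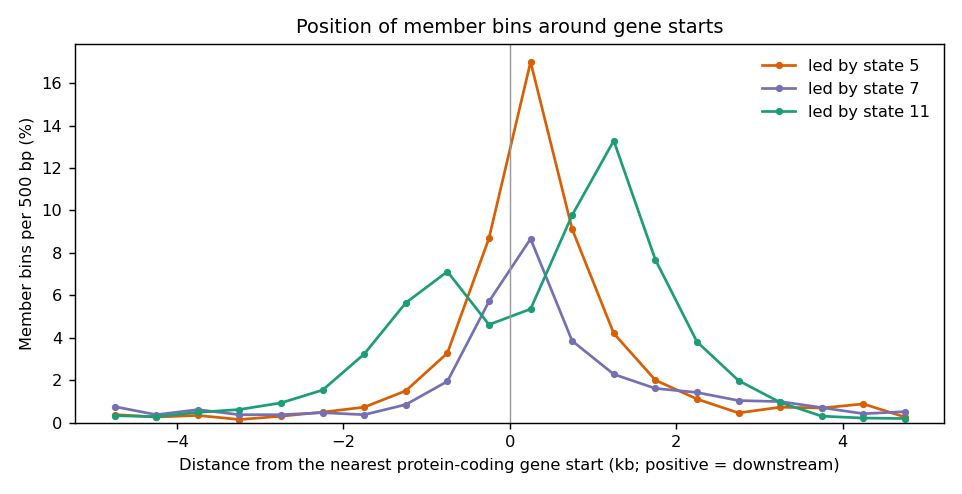
Percentage of member bins led by each state (y axis, per 500 bp) against distance from the nearest protein-coding gene start in kb (x axis, positive downstream). State 5 peaks at 17.0% just downstream of the start, while state 11 has maxima of 7.12% upstream and 13.3% downstream with a minimum of 4.62% between them.

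A member bin lay within 1 kb of 1554 of the 20665 autosomal protein-coding genes, which is 7.52%. By leading state the shares were 2.93% for state 5, 1.83% for state 7 and 5.42% for state 11. Counting gene starts alone, 843 of 16457 genes (5.12%) had one, with 2.07%, 0.918% and 3.55% in the same order of states. Lists of genes chosen for their roles in liver and development are read against these shares as counts only, since genes in a cluster can share a region and long genes offer more bins.

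Of genes expressed around the central vein, 7 of 20 (35%) had a member, and of periportal genes 1 of 20 (5.00%, Sox9); the difference between the lists was not tested. Besides Cyp2e1, the pericentral genes were Oat (ornithine aminotransferase), Slc1a2 (a glutamate transporter) and Lgr5 (an R-spondin receptor in Wnt signalling), followed by Nkd1, Tbx3 and Sp5. Of 20 member bins at Oat, CAST/EiJ and NZO/HlLtJ had 20 rare, 129S1/SvImJ 19, C57BL/6J 18, DBA/2J 15, PWK/PhJ 6, NOD/ShiLtJ 5, WSB/EiJ 4 and A/J 3, almost all in state 5. No strain lay between 6 and 15. At Slc1a2 state 11 gave 100 of 117 strain-bins, with rare bins from 8 of 18 in WSB/EiJ to 18 in C57BL/6J and NZO/HlLtJ. At Lgr5 all strains had between 2 (NZO/HlLtJ) and 9 (C57BL/6J and CAST/EiJ) of 9 bins.

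Imprinted genes had a member in 18 of 54 (33.3%), among which neighbours such as Peg3 with Usp29, Peg10 with Sgce and Zrsr1 with Commd1 share bins. Whether the genes of this list are imprinted in hepatocytes was not tested. Snrpn, an RNA-splicing protein gene of the Prader-Willi region, had 13 member bins and its neighbour Mkrn3, a makorin ring-finger gene, had 11, with a rare state in every strain at both and no state 7. Rare bins at Snrpn numbered 12 in NZO/HlLtJ, 11 in A/J and DBA/2J, 10 in CAST/EiJ, 8 in C57BL/6J, 6 in PWK/PhJ, 2 in NOD/ShiLtJ and 1 in 129S1/SvImJ and WSB/EiJ. Gatm, a creatine synthesis enzyme, had 42 of 44 strain-bins in state 11 and 4 to 6 of 6 bins in every strain except NOD/ShiLtJ with 1. Slc22a3, an organic cation transporter, had none in DBA/2J and WSB/EiJ and up to 8 of 8 in CAST/EiJ.

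Hox genes, which set position along the body axis, had a member in 12 of 39 (30.8%), all 12 in the Hoxa and Hoxb clusters. At Hoxa3 rare bins numbered 23 of 23 in 129S1/SvImJ and PWK/PhJ, 22 in C57BL/6J, 21 in CAST/EiJ, 20 in DBA/2J, 15 in WSB/EiJ, 14 in NZO/HlLtJ, 2 in A/J and 0 in NOD/ShiLtJ. Hoxb3 had the same 2 strains lowest, with 1 of 20 in A/J and 2 in NOD/ShiLtJ against 10 to 20 elsewhere. Hoxa2 had 1 of 11 in A/J and 2 in NOD/ShiLtJ against 5 to 11. Neighbouring Hox genes share bins. At Hoxa4 NZO/HlLtJ had 0 of 6 as well, and at Hoxa6 WSB/EiJ had 0 of 2.

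Other developmental regulators had a member in 9 of 50 (18%). Gata4, a GATA factor of heart and liver development, had 31 member bins, of which 30 were rare in 129S1/SvImJ, 28 in PWK/PhJ, 27 in NZO/HlLtJ and WSB/EiJ, 15 in C57BL/6J, 13 in DBA/2J, 9 in CAST/EiJ, 7 in NOD/ShiLtJ and 6 in A/J. State 5 gave 99 of its 162 strain-bins. Pax2, a paired-box factor, had state 5 alone, in 5 or 6 of 6 bins in 129S1/SvImJ, A/J, C57BL/6J, PWK/PhJ and WSB/EiJ and in 0 to 2 in the others. Irx3, an Iroquois factor, had mostly state 11 (28 of 33 strain-bins), and Onecut3 had state 5 in 18 and state 7 in 9 of 27.

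In these female mice 5 of 37 female-biased liver genes (13.5%) had a member, and 2 of 38 male-biased genes (5.26%, Susd4 and Elovl3). Of the 5, Cyp3a16, Cyp3a41b and Cyp3a41a are 1 cluster, and the others were Ntrk2, a neurotrophin receptor, and Vldlr, a lipoprotein receptor. At Ntrk2 rare bins numbered 10 of 10 in C57BL/6J, NOD/ShiLtJ and WSB/EiJ, 9 in 129S1/SvImJ, 8 in NZO/HlLtJ, 3 in PWK/PhJ, 1 in CAST/EiJ and 0 in A/J and DBA/2J. Elovl3, a fatty acid elongase, had 3 of 3 bins in state 11 in A/J, C57BL/6J, NOD/ShiLtJ and WSB/EiJ and 0 in the 5 other strains.

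Marker genes of the liver's cell types were counted beside the 7.52% of all autosomal protein-coding genes with a member. Hepatocyte markers had a member in 0 of 20, Kupffer and leukocyte markers in 0 of 14, and ubiquitous genes in 1 of 18 (5.56%, Eef2). In lists this short these counts are near the share of all genes. Endothelial markers had a member in 5 of 15 (33.3%), and stellate and bile duct markers in 4 of 15 (26.7%). By gene start alone the endothelial list had 4 of 11 genes (36.4%) and the stellate and bile duct list 3 of 9 (33.3%). The share of all genes with a known start was 5.12%. On the same count the imprinted list had 12 of 45 (26.7%), the pericentral 3 of 13 (23.1%) and the female-biased 5 of 28 (17.9%). Hox genes had 3 of 22 (13.6%), developmental regulators 4 of 30 (13.3%), male-biased genes 1 of 29 (3.45%) and periportal genes 0 of 14. At Kdr, the VEGF receptor of endothelial cells, all strains carried rare bins, from 7 of 16 in NOD/ShiLtJ to 16 in 129S1/SvImJ and PWK/PhJ. Ehd3, a marker of glomerular and sinusoidal endothelium, had 17 of 17 in 129S1/SvImJ, C57BL/6J and NZO/HlLtJ and 0 in CAST/EiJ. Cldn5, an endothelial tight junction protein, had 10 of 10 in the same 3 strains and 0 in A/J, NOD/ShiLtJ and PWK/PhJ. Clec4g, a sinusoidal lectin, reached 9 of 9 in NOD/ShiLtJ, all in state 7. Of the epithelial genes, Cldn7 had 3 or 4 of 4 bins in state 5 in 7 strains, and Epcam had 1 to 4 of 4 in state 11 in 7 strains. Whether other cells in the preparations take part in these states was not tested.

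**Figure D5:**
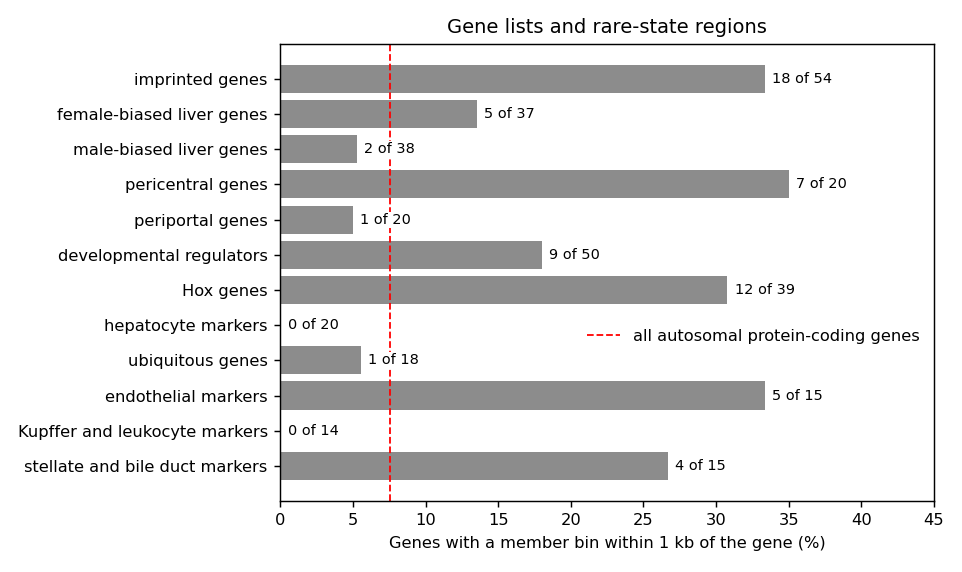
Percentage of the autosomal protein-coding genes of each list (x axis) with a member bin within 1 kb, with the counts beside the bars; the dashed line marks all such genes at 7.52%. Pericentral, imprinted, endothelial and Hox genes lie between 30.8% and 35%, and hepatocyte and Kupffer markers are at 0. Counted by gene start alone (not drawn), the same pericentral, imprinted, endothelial and Hox lists ranged from 13.6% (Hox) to 36.4% (endothelial).

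Members were spread over many places, with a few dense windows. Over the 1131 windows of 1 Mb that held any, the median was 2 regions and 6 bins, whereas chr5:145000001-146000000, which holds Cyp3a16, Cyp3a41a and Cyp3a41b, had 30 regions and 198 bins. Rare bins there numbered 191 in 129S1/SvImJ, 179 in C57BL/6J, 161 in NZO/HlLtJ, 143 in DBA/2J, 108 in A/J, 84 in PWK/PhJ, 49 in NOD/ShiLtJ, 1 in CAST/EiJ and 0 in WSB/EiJ. The most frequent other state was 1 in CAST/EiJ (78 bins), 2 in WSB/EiJ (73) and PWK/PhJ (48), and 13 in NOD/ShiLtJ (105) and A/J (51). The strains low in the window thus differed in the state they had instead, states 1 and 2 in the wild-derived strains and state 13 in NOD/ShiLtJ.

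At chr11:3000001-4000000, the window of Sfi1, 14 regions held 104 bins, with 94 rare in C57BL/6J, 91 in NOD/ShiLtJ, 87 in A/J, 60 in CAST/EiJ, 56 in WSB/EiJ, 54 in NZO/HlLtJ, 50 in 129S1/SvImJ, 22 in PWK/PhJ and 18 in DBA/2J. DBA/2J had 58 of them in state 4. Both windows hold near-identical gene copies, and the effect of these 2 windows was measured by leaving them out. Held-out recurrence exceeded the autosomal share by 56.2 percentage points without them, against 55.8 with them. Other regions over repeated genes, such as Rn18s-rs5 below, stayed in. The effect of sequence copies as a whole was therefore not measured.

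Some long regions touch no protein-coding gene. The longest was chr17:39843001-39848800 (29 bins) over Rn18s-rs5, a ribosomal RNA pseudogene, with 235 strain-bins in state 5, 6 in state 7 and a rare state in 9 strains. As a copy of a repeated gene its placement is uncertain. Those at chr15:84712601-84716200 (18 bins, over the lncRNA Gm41374) and chr17:13550601-13553200 (13 bins, over the lncRNA 2700054A10Rik) were in state 7 alone, with 107 and 117 strain-bins, the latter being every bin in every strain. At chr11:119055001-119058600 (18 bins), 14088 bp from the Polycomb gene Cbx8, 85 strain-bins were in state 5.

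Applied to the X chromosome, the same rule gave a different mix. It found 1544 regions of 11284 bins, 1.32% of the bins of X against 0.0795% of autosomal bins, with a median length of 1000 bp against 400 bp. State 5 led 58.8% of the X regions, state 7 led 7.25% and state 11 led 32.7%, against 25.1%, 18.7% and 53.8% on autosomes. These shares follow from the rule and were not tested. The flanks were tested, again around regions that the measured strain helped to choose. On X state 13 held 60.2% ± 3.32, state 10 held 16.3% ± 1.24 and state 14 held 2.27% ± 1.44. Compared with autosomal flanks, state 10 was 11.6 ± 1.05 percentage points higher, state 13 was 19.1 ± 6.21 higher and state 14 was 18.5 ± 4.25 lower, each in 9 of 9 strains (exact sign-flip permutation tests, adjusted p = 0.0043). The sizes depended on the flank: with 200 bp the difference in state 13 was 5.18 with adjusted p = 0.07 by the same exact test, and with 5 kb states 13, 14 and 10 differed by 44.2, -40.6 and 7.36. State 12, at 15.4% ± 2.41 on X, did not pass (adjusted p = 0.074, exact test). The whole chromosomes differed in the same directions, so these differences are not particular to the flanks. Outside the rare states, state 13 held 86.9% of all X bins against 11.1% of autosomal bins. State 14 held 10.9% against 76.7%, and state 10 held 1.47% against 0.155%. State 13 was thus less frequent in X flanks than over X, but more frequent in autosomal flanks (41.1%) than over the autosomes.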

How the data were processed

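The 117 ChIP-seq libraries were represented by the authors' deposited chromatin-state segmentations, 1 per strain over all its mice; column 4 is a category (unit: other), the state number, in 200-bp steps, per the file headers and values. The submitters' processing notes name mm10, FastQC 0.11.5 and MACS 1.4.2; the segmentation tool, and how the mice were combined, are not given in the sources used here. A file joining all strains was not used.

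States were compared per bin with Python 3.11.15 and numpy 2.4.6 (the recurrence measure was tested on simulated data). Shares were compared over 9 strains by exact two-sided sign-flip permutation tests (smallest p 0.0039, or 0.0078 without 1 strain) with Benjamini-Hochberg adjustment within each family and a threshold of 0.05. States of flanks and of strains without a rare state were shares among the 11 other states. Gene positions and promoters came from RefSeq GRCm38.p6, the assembly of mm10. Named genes are the 8 longest regions per state within 1 kb of a protein-coding gene and up to 4 genes per list in order of strain-bins, of which 1 gene is not reported here; the other list genes named, the gene-free regions, the windows and the remarks on which strains were low were picked after their values were seen. The members and the lists were chosen with earlier results of these data known. Alternatives were other strain minimums, other windows and flanks, neighbouring bins, single-bin regions left out, each strain left out, and, chosen after seeing the data, 2 windows left out.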

Additional observations from a re-analysis of the deposited data

Results flagged for a closer look

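In 38 sets of 9 strain values, the highest or lowest value was checked for a gap to the nearest other value that is large relative to the whole range (Dixon's 95% limit). In 5 sets a strain stood apart, where chance would give 1.9 at 1 in 20, and it was PWK/PhJ in each. The sets come from the same 9 segmentations and partly from the same bins. They are not separate draws, so the 5 cannot be weighed against the 1.9. Where the other strains led with state 11, a rare state of PWK/PhJ was state 11 in 71.1% of bins, against 87.9% to 96.9% in the other 8. Where they led with state 7 or 11, it was state 5 in 19.6%, against 1.15% to 9.23%. In regions led by state 7, 41.5% of the bins where PWK/PhJ had no rare state were in state 4, against 9.12% to 25%. In regions led by state 11, 19.2% of such bins were in state 14, against 3.81% to 6.53%. In the flanks of all regions 30.8% were in state 14, against 17.1% to 23.3%. What sets this strain apart was not tested.

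On chromosome Y, which no comparison used, the same rule found 11 bins in 6 regions, 0.00240% of 458723 bins, although the mice were female.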

How the results depend on the processing

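Of 463 values under an alternative, 453 kept their direction and their side of the threshold, or for a count stayed within 1.5 times. The difference in held-out recurrence near starts against far from genes, -1.87, changed sign to 1.21 with at least 3 strains and 3.23 with a neighbouring bin counted, without passing the threshold under any setting. Flank differences in states 9, 10, 12 and 14, and X differences in states 10, 13 and 14, moved by over 1.5 times with flanks of 200 bp or 5 kb while keeping their sign. The number of state pairs that differed in held-out recurrence was 2 instead of 1 when a neighbouring bin counted, and 1 to 2 with each strain left out, through the pair of states 7 and 11 and C57BL/6J. At least 3 or 5 strains gave 14409 or 6595 bins in 3816 or 2028 regions, the same state in 4 strains 8387 bins, and each strain left out 7885 to 8790 bins. Male-biased genes numbered 1 instead of 2 and ubiquitous genes 0 instead of 1 with at least 5 strains, and Kupffer and leukocyte markers 1 instead of 0 with at least 3. No paired analysis was possible because replicate numbers belong to mice, and all mice of a strain share 1 segmentation; the tests compare values within strains. Depth and the spread between mice are unknown, and 9 related strains bound every p at 0.0039.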

Other observations

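Rare regions were densest on chromosome 11, with 1.96 per Mb, and sparsest on chromosome 12, with 0.733 per Mb. Among windows of 1 Mb, chr2:18000001-19000000 held 66 member bins in 11 regions, 8 of them led by state 11, at genes that include Bmi1, a Polycomb subunit, and Commd3. Rare bins there numbered 59 in 129S1/SvImJ, 55 in DBA/2J, 48 in CAST/EiJ and NOD/ShiLtJ, 46 in A/J, 45 in NZO/HlLtJ, 41 in C57BL/6J, 38 in WSB/EiJ and 32 in PWK/PhJ. Of 919 autosomal microRNA hairpins in the RefSeq table, 1 overlapped a member bin (0.109%), Mir6546, where 5 strains carried state 5.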
